A study of Mus musculus with 4 samples.

Results

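The 10 genes described here belong to the PDGF, FGF, EGF and HGF signaling pathways, and comprise the receptors Pdgfra, Pdgfrb, Fgfr1, Fgfr2, Egfr and Met and the ligands Fgf2, Fgf7, Fgf10 and Hgf. They were found by gene symbol, from a list drawn up with earlier results of these data known. Each symbol matched 1 of the 55487 rows of the count table. All 10 passed the filter on low counts (a sum of at least 10 over the 4 libraries), which left 19384 genes to test.

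RNA was sequenced from wild-type mouse embryonic fibroblasts (MEFs), which are primary cells grown from embryos, to examine how pigment epithelium-derived factor (PEDF), a secreted glycoprotein, affects gene expression. The sample labels put the cells at passage 2, which differs by 1 passage from the paper's text, and all cultures received medium with fetal bovine serum, itself a source of growth factors. PEDF-treated MEFs received 100 ng/mL of the protein for 24 h, and control MEFs received none. Control and PEDF each had 2 libraries, the first from experiment 1 and the second from experiment 2, and every experiment started from its own embryos. Comparisons between groups therefore rest on 2 preparations of cells.

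Growth factors of these families bind receptor tyrosine kinases at the cell surface, which pair, phosphorylate each other and pass the signal through adaptor proteins to the RAS-ERK and PI3K-AKT cascades. In connective tissue, PDGF and FGF2 are classical mitogens of fibroblasts. Fibroblasts in turn secrete FGF7, FGF10 and HGF, which act mainly on neighboring epithelial cells through the FGFR2 IIIb isoform and MET.

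The libraries held between 14722848 and 18144640 counts, and the factors that scaled them (TMM method of edgeR) lay between 0.983 and 1.01. Levels of a gene across libraries are given in CPM, or counts in 1000000 counts of the scaled library, and levels of different genes are compared in TPM, which takes gene length into account. The limit that a count of 0 allows, 3 counts, corresponded to between 0.168 and 0.203 CPM. All 10 fibroblast markers had counts in every library, with a summed level of 14786 to 19848 TPM. Of 8 macrophage markers 8 had counts in every library, with a sum of 149 to 257 TPM, and of 8 skeletal muscle markers 6 had, with a sum of 364 to 474 TPM. Of 8 epithelial markers 8 had counts, with a sum of 110 to 132 TPM, most of which came from the keratins Krt18, Krt19 and Krt8, while Cdh1 gave 1.66 to 3.13 TPM and Epcam 1.25 to 1.37 TPM. Endothelial markers summed to 6.98 to 7.36 TPM, and Tie1 and Cldn5 had no count. In such bulk samples fewer cells of a type and less RNA per cell cannot be told apart.

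The PDGF and FGF receptors that fibroblasts are known to use were the most abundant of the 10 transcripts. Pdgfrb, the receptor for PDGF-BB and PDGF-DD, had a median of 232 TPM (198 to 289 TPM over the 4 libraries), at or above 97.3% of the tested genes. Fgfr1, the main FGF receptor of mesenchymal cells, followed at 103 TPM (93.6 to 111 TPM). Pdgfra, which binds PDGF-AA and PDGF-CC as well as PDGF-BB, came next at 66.4 TPM (60.0 to 71.1 TPM). These 3 receptors were clearly separated, since no library of one reached the range of the next.

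Egfr, the receptor for EGF, TGF-alpha and amphiregulin, had a median of 34.5 TPM (29.2 to 37.7 TPM), and Fgfr2 had 21.6 TPM (20.9 to 22.2 TPM). Met, which encodes the only known receptor for HGF, was the least abundant of the 6 receptors at 9.61 TPM (8.04 to 11.2 TPM), close to the middle of all tested genes, of which 51.0% lay at or below it. The counts are per gene, so the IIIb and IIIc isoforms of Fgfr2, which differ in the ligands they bind, were not separated.

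Among the ligands, Fgf7 (keratinocyte growth factor) was the most abundant at 19.8 TPM (16.9 to 22.2 TPM), followed by Fgf2 at 13.8 TPM (11.8 to 14.9 TPM). Hgf had 4.74 TPM (4.41 to 5.17 TPM). Fgf10, which guides branching in the lung, was the lowest of the 10 at 2.50 TPM (2.05 to 2.70 TPM), at or above 29.7% of tested genes. In the order of all 10 medians, the only neighbors whose ranges overlapped were Fgfr2 and Fgf7, whose medians differed 1.09-fold. The other neighbors differed between 1.43-fold (Fgf7 over Fgf2) and 2.25-fold (Pdgfrb over Fgfr1).

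**Figure D1:**
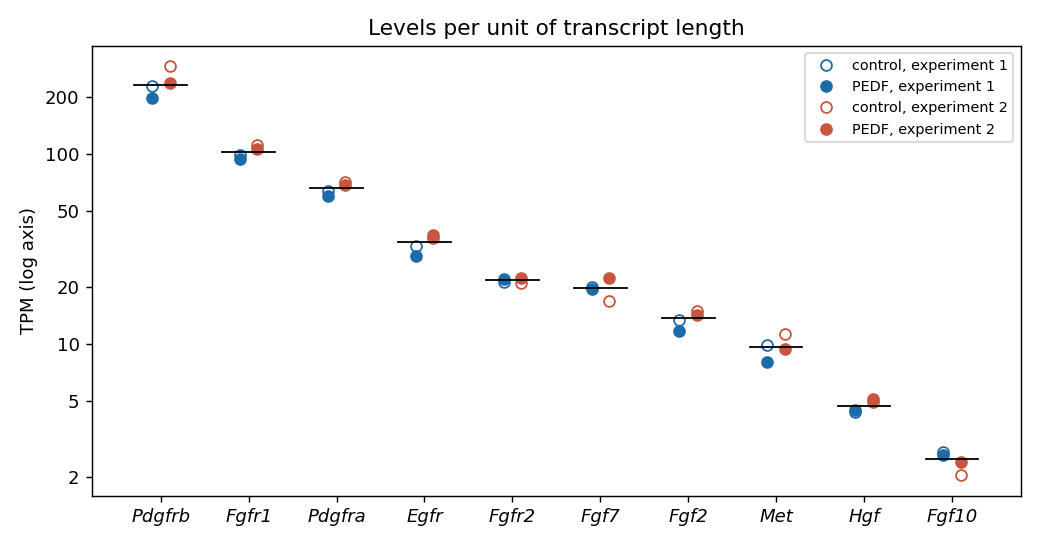
Levels of the 10 genes in TPM on a log axis, with 1 point per library and a bar at the median of the 4 libraries. Pdgfrb stands highest at a median of 232 TPM and Fgf10 lowest at 2.50 TPM, and only Fgfr2 and Fgf7 have ranges that overlap with a neighbor in the order.

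After 24 h of PEDF, none of the 10 genes passed the test against control MEFs in the comparison of both groups without regard to experiment (edgeR quasi-likelihood test, adjusted p over all tested genes of at least 0.705 for each). In that comparison 0.00516% of all tested genes were called, which was 1 gene, Malat1 (named after its values were seen). At an unadjusted p under 0.05, 2 of the 10 genes were lower (Pdgfrb and Met) and 0 higher, where 3.66% of all tested genes were lower and 3.22% higher. DESeq2, which gave an adjusted p to 2775 genes, called 0.324% of them and 0 of the 5 members among them, and limma on log2(TPM + 1) called 0 of the 10. When the experiment was entered as a block, so that PEDF-treated cells were compared with control cells of the same preparation, Pdgfrb was lower with PEDF and the other 9 genes were not called, against 3.75% of tested genes called.

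**Figure D2:**
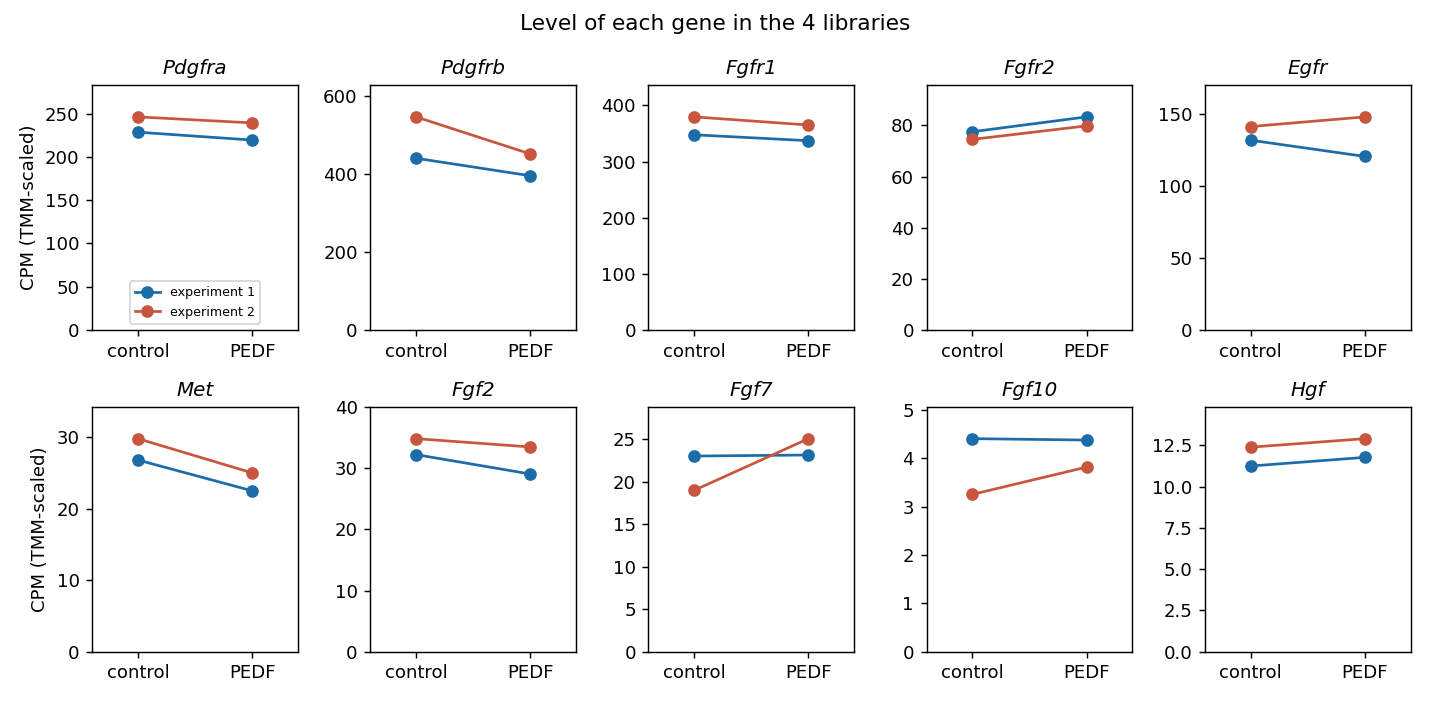
Level of each gene in CPM in the 4 libraries, with lines that join the control and PEDF library of 1 experiment. For Pdgfrb both lines go down, from 440 to 395 CPM and from 546 to 451 CPM, as they do for Met, from 26.8 to 22.5 CPM and from 29.8 to 25.0 CPM, which was not called with or without the block. The axes start at 0 and differ between genes.

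Pdgfrb (ENSMUSG00000024620, chromosome 18, 61045150 to 61085061, plus strand, GRCm38) was the gene with the clearest difference. In experiment 1 it had 440 CPM in control and 395 CPM in PEDF-treated MEFs, and in experiment 2 it had 546 CPM in control and 451 CPM in PEDF-treated MEFs. It was lower with PEDF in both experiments, but the control of experiment 1 lay below the PEDF library of experiment 2, so the groups overlapped. The means were 493 ± 75.0 CPM in control and 423 ± 39.5 CPM with PEDF (SD, n = 2 each).

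The log2 fold change of Pdgfrb was -0.22 (SE 0.10, adjusted p = 0.719, edgeR) without the block. With the block it was -0.22 (SE 0.04, adjusted p = 0.000125), and DESeq2 with the block, which called 4.0% of 2775 genes, gave -0.22 (adjusted p = 0.0266). These changes are small, a fold of 0.858 in the comparison without the block. The fit with the block leaves 1 residual degree of freedom, so its p draws mainly on spread estimated across genes. How the Pdgfrb difference itself varied between the 2 preparations weighs little in it. Within experiment 1 the log2 ratio of the PEDF to the control library was -0.16 (95% interval -0.21 to -0.10), a level 10.2% lower. Within experiment 2 the ratio was -0.28 (-0.32 to -0.23), a level 17.4% lower. These intervals are exact and cover counting error only, and PCR reads without molecular identifiers are not independent molecules.

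A single library weighed on the size of the Pdgfrb difference. The log2 fold change without the block was -0.06 (adjusted p = 0.999) when control replicate 2 was left out and -0.37 (adjusted p = 0.00588) when control replicate 1 was left out. It was -0.13 without PEDF replicate 1 and -0.32 without PEDF replicate 2.

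The summed level of the 10 fibroblast markers ranked the 4 libraries in the same order as Pdgfrb. It was 16627 TPM in control and 14786 TPM with PEDF in experiment 1, and 19848 and 16741 TPM in experiment 2. Col1a1 weighed most in this sum, with 8332 and 7226 TPM in experiment 1 and 10587 and 8469 TPM in experiment 2. In TPM, Thy1, Prrx1, Dcn and Lum were higher with PEDF in both experiments. Within that list the collagen genes Col1a1 and Col1a2 and the fibronectin gene Fn1 were lower with PEDF in the fit with the block (log2 fold changes -0.24, -0.12 and -0.37). The small proteoglycan genes Dcn and Lum were higher (0.35 and 0.34), and the list's median was 0.03. With the length trend also removed Col1a2 was not called (-0.03, adjusted p = 0.816) and the other 4 were. The macrophage marker sum ran in the opposite order, with 245 TPM in control and 257 TPM with PEDF in experiment 1 and 149 and 209 TPM in experiment 2. Lyz2 weighed most in this sum, and the list's median level did not follow that order, with 17.8 TPM in control and 17.1 TPM with PEDF in experiment 1 and 13.9 and 16.3 TPM in experiment 2. Adgre1, Csf1r and Itgam were lower in the PEDF than in the control library of experiment 1. The list's 8 genes ranged from Ptprc at 0.41 to 0.70 TPM to C1qa at 33.9 to 49.0 TPM and Lyz2 at 57.8 to 130 TPM. Of these 1, Lyz2, was called by edgeR with the block (0.39, adjusted p = 2.01e-05). Without the block it was not called (0.34, SE 0.60, adjusted p = 0.94). Lyz2 had 129 TPM in control and 130 TPM with PEDF in experiment 1, and 57.8 and 101 TPM in experiment 2. The summed skeletal muscle markers were higher with PEDF in both experiments (364 and 395 TPM, then 432 and 474 TPM), with 2 of 6 tested genes called higher with the block, beside 1.67% of all tested genes, and 0 when the length trend was also removed (1 at an unadjusted p under 0.05, edgeR), beside 177 of 19384. The part of these marker lists in the Pdgfrb difference was not tested.

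Pdgfra (ENSMUSG00000029231, chromosome 5, 75152292 to 75198215, plus strand) differed much less. It had 228 and 219 CPM in the control and PEDF libraries of experiment 1, and 246 and 239 CPM in those of experiment 2. The higher values were those of experiment 2 and the groups overlapped, with a log2 fold change of -0.05 (SE 0.07, adjusted p = 0.917). Within a library, where depth cancels out, Pdgfrb stood above Pdgfra by 3.53 times in control and 3.30 times in PEDF-treated MEFs of experiment 1, and by 4.06 and 3.45 times in experiment 2 (TPM ratios). The ratio was lower with PEDF in both experiments, by 0.10 and by 0.23 on the log2 scale, and was not tested.

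The FGF receptors had differences of opposite sign, neither of which passed the test. Fgfr1 (ENSMUSG00000031565, chromosome 8, 25513654 to 25575718, plus strand) had 348 CPM in control and 337 CPM with PEDF in experiment 1, and 380 and 365 CPM in experiment 2. Its groups overlapped, and the log2 fold change was -0.05 (SE 0.07, adjusted p = 0.916). Fgfr2 (ENSMUSG00000030849, chromosome 7, 130162451 to 133123350, minus strand) had 77.5 CPM in control and 83.3 CPM with PEDF in experiment 1, and 74.5 and 79.8 CPM in experiment 2.

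Both PEDF libraries thus lay above both control libraries for Fgfr2, by 7.48% and 7.12% within the experiments. The log2 ratios were 0.10 in each experiment, and their counting intervals (-0.01 to 0.22 and -0.01 to 0.21) included 0. The log2 fold change was 0.10 (SE 0.08, adjusted p = 0.802), and the adjusted p with the block was 0.462. The TPM of Fgfr1 divided by that of Fgfr2 was 4.69 in control and 4.23 with PEDF in experiment 1, and 5.33 and 4.79 in experiment 2, so PEDF libraries were lower by 0.15 and by 0.16 on the log2 scale, which was not tested.

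Egfr (ENSMUSG00000020122, chromosome 11, 16752203 to 16918158, plus strand) had ratios of opposite sign in the experiments. It had 132 CPM in control and 121 CPM with PEDF in experiment 1, and 142 CPM in control and 148 CPM with PEDF in experiment 2. The log2 ratio was -0.13 in experiment 1 (95% counting interval -0.22 to -0.04) and 0.07 in experiment 2 (-0.01 to 0.15). The 2 intervals did not overlap, but with 1 library per arm in each experiment the difference between them could not be tested against the spread between libraries. The pooled log2 fold change was -0.02 (SE 0.09, adjusted p = 0.97).

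Met (ENSMUSG00000009376, chromosome 6, 17463800 to 17573980, plus strand) had 26.8 CPM in control and 22.5 CPM with PEDF in experiment 1, and 29.8 and 25.0 CPM in experiment 2. Both PEDF libraries lay below both control libraries, and each was 16.1% below the control of its own experiment. The log2 ratio was -0.25 in both (95% counting intervals -0.46 to -0.04 and -0.44 to -0.07). Its log2 fold change of -0.25 (SE 0.11) did not pass the test, with an adjusted p of 0.705 without the block and 0.135 with it. Its 1724 counts over the 4 libraries, against 30427 for Pdgfrb, gave it wider intervals.

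Hgf, the ligand of MET (ENSMUSG00000028864, chromosome 5, 16553495 to 16620152, plus strand), had 11.2 CPM in control and 11.8 CPM with PEDF in experiment 1, and 12.4 and 12.9 CPM in experiment 2. The groups overlapped, and the log2 fold change was 0.06 (SE 0.15, adjusted p = 0.947). The counting intervals of the log2 ratio ran from -0.25 to 0.38 in experiment 1 and from -0.21 to 0.33 in experiment 2.

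Fgf7 (ENSMUSG00000027208, chromosome 2, 126034658 to 126091185, plus strand) had a positive log2 fold change, most of which came from experiment 2. It had 23.0 CPM in control and 23.2 CPM with PEDF in experiment 1, and 19.0 CPM in control and 25.1 CPM with PEDF in experiment 2. In CPM the PEDF libraries lay above the controls, by 0.532% in experiment 1 and by 32.0% in experiment 2. In TPM, and with the length trend removed, the log2 ratio in experiment 1 was -0.03, and in TPM the groups overlapped. The log2 ratios were 0.01 (95% counting interval -0.21 to 0.23) and 0.40 (0.19 to 0.61), and the log2 fold change of 0.20 (SE 0.12) did not pass the test (adjusted p = 0.763, and 0.328 with the block). Without control replicate 2 it was 0.07, and without control replicate 1 it was 0.35.

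Fgf10 (ENSMUSG00000021732, chromosome 13, 118669791 to 118792115, plus strand) had 4.40 CPM in control and 4.37 CPM with PEDF in experiment 1, and 3.25 and 3.82 CPM in experiment 2. These rested on 58 to 68 counts per library, and the groups overlapped. The intervals of its log2 ratios were the widest of the 10, from -0.52 to 0.50 and from -0.30 to 0.76, so a change of the size seen for Pdgfrb was not detectable at this depth. Its log2 fold change was 0.10 (SE 0.25, adjusted p = 0.948).

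Fgf2 (ENSMUSG00000037225, chromosome 3, 37348346 to 37410108, plus strand), whose product lacks a signal peptide, unlike those of the other 3 ligands, had 32.3 CPM in control and 29.1 CPM with PEDF in experiment 1, and 34.9 and 33.5 CPM in experiment 2. It was lower with PEDF in both experiments, the groups overlapped, and the log2 fold change of -0.10 (SE 0.10) did not pass the test (adjusted p = 0.872). It was -0.00 without PEDF replicate 1 and -0.21 without PEDF replicate 2. Nudt6, on the opposite strand, shares 640 bases with its exons, or 9.4% of their length, and had 565 counts over the 4 libraries against 2147 for Fgf2. The strand setting of the counting is not stated, so reads of this stretch may not have been assigned to 1 of the 2 genes. For the other members, exon bases shared with any other gene made up at most 6.7% (Hgf and Gm43489, which had 20 counts). Of these, Ctbp2 shares 3.0% with Fgfr2 on the same strand and had 4226 counts against 5190 for Fgfr2.

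**Figure D3:**
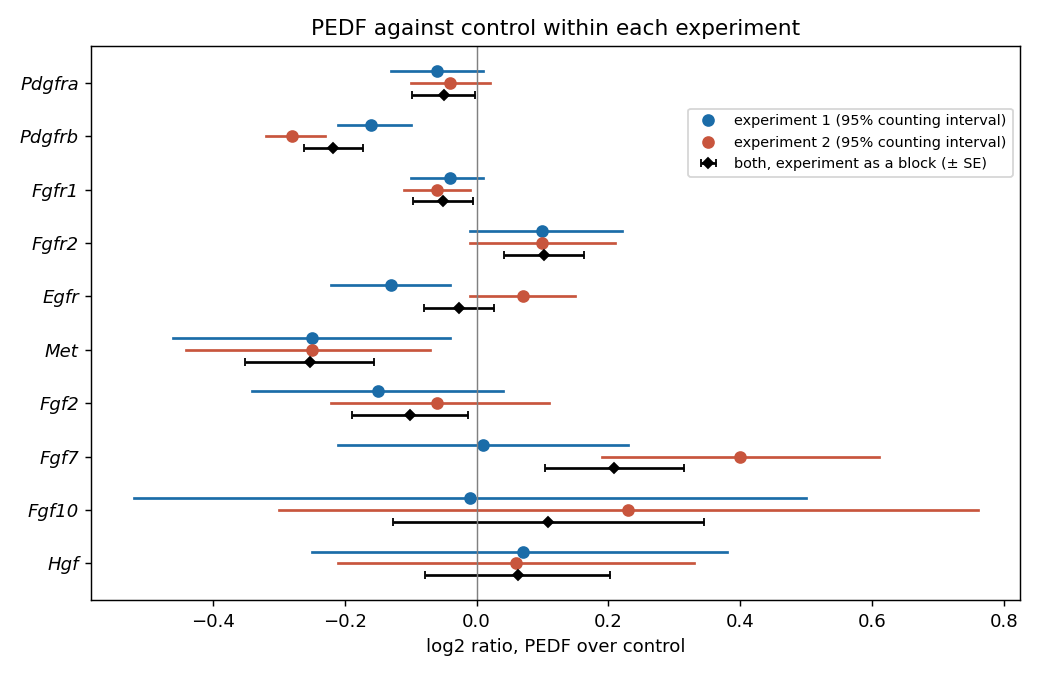
Log2 ratio of the PEDF to the control library for each gene, with 1 point per experiment and its exact 95% interval for counting error, and a diamond for the log2 fold change with the block and its standard error. Both intervals lie below 0 for Pdgfrb and Met, and for no gene do both lie above 0.

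Across the 10 genes, 5 were lower and 3 higher with PEDF in both experiments, where 28.8% of all tested genes were lower and 30.1% higher in both. These counts depended on gene length, as with the trend of fold change with length removed the ratios of Fgfr1 were 0.02 in both experiments, those of Pdgfra 0.00 and 0.04 and those of Fgf7 -0.03 and 0.36, while Pdgfrb, Met and Fgf2 were lower in both. In CPM the groups did not overlap for 3 genes (Met lower, Fgfr2 and Fgf7 higher), where this held for 37.3% of all tested genes (18.4% lower and 18.9% higher). Counting intervals lay below 0 in both experiments for 2 genes, Pdgfrb and Met, where this held for 3.88% of tested genes. They lay above 0 in both for 0 of the 10, where this held for 3.44%. In TPM, or with the length trend removed, intervals lay on the same side of 0 in both experiments for 3 of the 10 genes. The share of all tested genes on these scales was not taken. The median log2 fold change was -0.05 over the 6 receptors, 0.08 over the 4 ligands and 0.00 over all tested genes. With the block and the length trend removed it was 0.02 over the receptors and 0.10 over the ligands, so the sign for the receptors depended on the trend.

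Longer genes tended to be lower with PEDF across the transcriptome, and several of the receptor genes are long. Among genes with a mean above 8 CPM, the median log2 fold change with the block was 0.093 for the 1005 genes with 1000 to 2000 bases of exon and -0.056 for the 949 genes with 8000 to 10000 bases. The slope was -0.0484 per doubling of length, and it was negative in both experiments (-0.0402 and -0.056). Exons of Pdgfra sum to 10024 bases, those of Fgfr1 to 9875, those of Fgfr2 to 10328 and those of Egfr to 11326, while Pdgfrb has 5478, Met 7679 and Fgf7 3248.

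Removing this trend together with the block left Pdgfrb at -0.20 (SE 0.04, adjusted p = 0.000479), the 1 of the 10 genes called, where 2.17% of tested genes were. Met went to -0.21 (adjusted p = 0.358) and Fgfr2 to 0.17 (adjusted p = 0.112). The small negative log2 fold changes of Pdgfra, Fgfr1 and Egfr became 0.02, 0.02 and 0.06, so their direction depended on the trend. What gives rise to the trend was not tested.

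**Figure D4:**
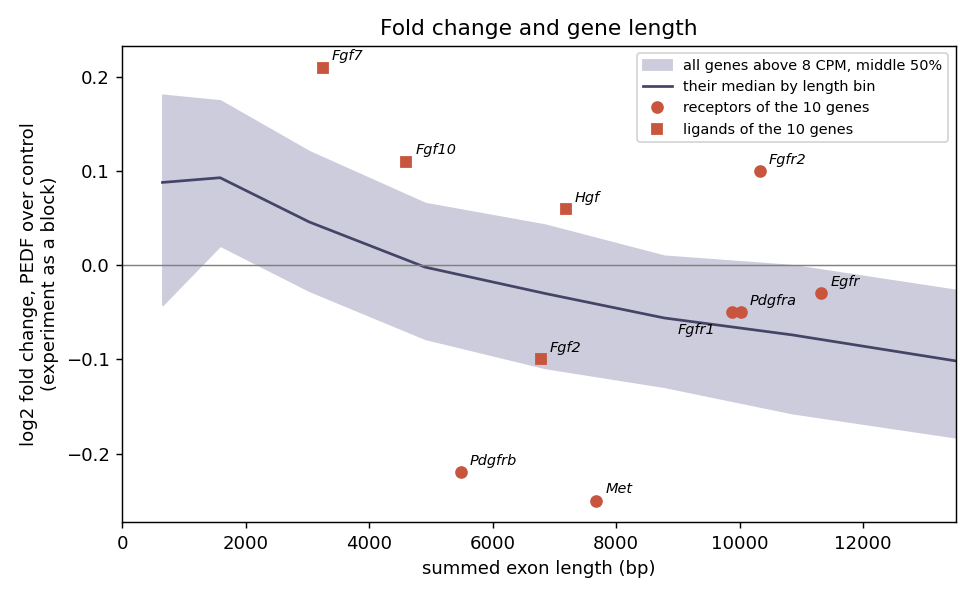
Log2 fold change of PEDF against control (block fit) against summed exon length in bases, with the median (line) and middle 50% (band) of all genes with a mean above 8 CPM and the 10 genes marked (circles for receptors, squares for ligands). The medians go down from 0.093 at 1000 to 2000 bases to -0.074 at 10000 to 12000 bases, and Pdgfrb and Met lie below the medians of genes of their length.

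The 2 MEF preparations differed for 2 of the receptors. Pdgfrb was higher in experiment 2 by 0.25 on the log2 scale (SE 0.04, adjusted p = 2.71e-06) and Egfr by 0.20 (SE 0.05, adjusted p = 0.00789, edgeR with a treatment term), where 4.49% of all tested genes were called and 2.3% were called higher. This adjusted p measures the spread between libraries of the same preparation only, and preparation and culture cannot be told apart. The Pdgfrb difference between preparations, 0.25, had about the size of its difference with PEDF, -0.22. With the length trend removed, which left 3.13% of tested genes called, Pdgfrb was called again (0.23, adjusted p = 2.02e-05) and Egfr was not (0.14, adjusted p = 0.122). Leaving out 1 library moved the Pdgfrb difference between 0.19 and 0.31. The Egfr difference was 0.10 without either PEDF library and 0.30 without either control library.

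Fgfr1 and Pdgfra were each 0.12 higher in experiment 2 on the log2 scale and were not called (adjusted p = 0.114 and 0.176). The remaining differences lay between -0.31 (Fgf10, SE 0.24) and 0.16 (Fgf2, SE 0.09), with adjusted p of at least 0.404.

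The partners of these receptors and ligands were examined as 8 lists of pathway genes, with 110 symbols in all, of which 109 had a row and 98 were tested. Without the block 0 of the 98 were called by edgeR. At an unadjusted p under 0.05, 2 were higher and 4 lower, beside 3.22% and 3.66% of all tested genes. The median log2 fold change of the 98 was -0.05. Once the experiment was a block, 1 was higher (Sdc1) and 2 were lower (Cbl and Myc), where 1.67% of tested genes were called higher and 2.07% lower, and the median moved to -0.04. At an unadjusted p under 0.05 the block gave 3 higher and 14 lower of the 98, beside 1392 higher and 1430 lower of all 19384 tested genes. With the length trend also removed it gave 4 higher and 10 lower, beside 1090 and 1178.

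MEFs also expressed ligands for these receptors. Of the 4 PDGF genes, Pdgfc had a median of 76.9 TPM, Pdgfa 36.6 TPM and Pdgfd, whose product binds PDGFRB, 10.5 TPM. Of the other 19 FGF genes 9 had a median of at least 1 TPM, led by Fgf18 at 19.2 TPM. Next were Fgf13 (which is not secreted) at 6.22 TPM and Fgf21 at 4.97 TPM, on 20 to 40 counts per library. Of the 11 EGF-family ligand genes 6 reached 1 TPM, led by Hbegf at 27.1 TPM, Ereg at 4.79 TPM and Areg at 4.12 TPM. In these 3 lists 0 of 25 tested genes were called by edgeR with or without the block, beside 3.75% and 0.00516% of all tested genes. At an unadjusted p under 0.05 there were 0 without the block, beside 1334 of all 19384 tested genes. With it there were 2, both lower, beside 1430 lower of all tested genes. The median log2 fold changes of the 3 lists without the block were -0.01, -0.15 and -0.03.

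Among 13 tested other receptors and co-receptors, the heparan sulfate proteoglycans Sdc1 (229 TPM), Gpc1 (157 TPM) and Sdc4 (137 TPM), which help FGFs bind their receptors, were the most abundant. The listed co-receptor genes Klb and Kl had 2 and 4 counts over all libraries and were not tested. Sdc1 had 301 CPM in control and 327 CPM with PEDF in experiment 1, and 282 and 318 CPM in experiment 2. Both PEDF libraries lay above both controls. Its log2 fold change was 0.14 (SE 0.07, adjusted p = 0.719) without the block and 0.15 (SE 0.05, adjusted p = 0.0434) with it, and with the length trend also removed it was 0.12 (adjusted p = 0.145). DESeq2 with the block gave 0.14 (adjusted p = 0.373).

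Pro-HGF is cleaved by serine proteases, and of 8 genes for such proteases, their inhibitors and the related ligand Mst1, the plasminogen activators Plau (80.0 TPM) and Plat (68.7 TPM) and the inhibitor Spint2 (5.54 TPM) were the highest. Of these 8 genes 0 were called by edgeR with or without the block, and 0 had an unadjusted p under 0.05. The 18 genes for adaptors and proximal effectors, led by Shc1 (108 TPM), Crk (107 TPM) and Grb2 (80.2 TPM), also gave 0 calls by edgeR. At an unadjusted p under 0.05, 1 gene was higher without the block, and 1 was higher and 2 lower with it. The log2 fold changes of the 18 lay between -0.16 and 0.27. Of all 19384 tested genes, 1334 had an unadjusted p under 0.05 without the block and 2822 with it, and 3.75% were called with it.

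Of 15 genes for receptor inhibitors and turnover, the highest were Errfi1 (97.1 TPM), which encodes an inhibitor of EGFR, Flrt2 (74.2 TPM) and Ptpn1 (38.4 TPM). With the block 1 of the 15 was called, as lower, beside 2.07% of all tested genes. This was Cbl, which encodes a ubiquitin ligase that marks activated PDGF, EGF and HGF receptors for degradation. It had 66.3 CPM in control and 58.2 CPM with PEDF in experiment 1, and 69.4 and 58.5 CPM in experiment 2. Both PEDF libraries lay below both controls. The log2 fold change was -0.22 (SE 0.08, adjusted p = 0.696) without the block and -0.22 (SE 0.07, adjusted p = 0.0313) with it. Cbl has 12345 bases of exon, and with the length trend removed its value was -0.13 (adjusted p = 0.433). DESeq2 with the block gave -0.22, with an unadjusted p of 0.0864 and no adjusted p. Of the 15 genes, 0 were higher and 4 lower at an unadjusted p under 0.05 (edgeR with the block), beside 1392 and 1430 of all 19384 tested genes. With the length trend also removed 0 were higher and 1 lower, beside 1090 and 1178.

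Genes that growth factor receptors induce, such as the Sprouty, Dusp and Etv genes, were examined as a list of 19. Ccnd1 (cyclin D1, 167 TPM), Ier3 (103 TPM) and Phlda1 (90.8 TPM) were the most abundant. Myc, which serum and PDGF induce in fibroblasts, had 53.1 CPM in control and 45.8 CPM with PEDF in experiment 1, and 64.4 and 52.2 CPM in experiment 2. Both PEDF libraries lay below both controls.

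The log2 fold change of Myc was -0.26 (SE 0.10, adjusted p = 0.696) without the block, -0.26 (SE 0.07, adjusted p = 0.0107) with it and -0.31 (adjusted p = 0.000984) with the length trend also removed. In DESeq2 with the block it was -0.26, with an unadjusted p of 0.058 and no adjusted p. The value without the block depended on single libraries, with -0.39 (adjusted p = 0.0188) without control replicate 1, -0.36 (adjusted p = 0.188) without PEDF replicate 2, -0.17 (adjusted p = 0.999) without PEDF replicate 1 and -0.11 (adjusted p = 0.999) without control replicate 2. Of the 19 genes, 0 were called higher and 1 lower with the block, beside 1.67% and 2.07% of all tested genes, and the median log2 fold change was -0.05. With the length trend also removed 2 were called lower, Myc and Dusp5, which encodes an ERK phosphatase (-0.34), beside 244 of all 19384 tested genes.

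**Figure D5:**
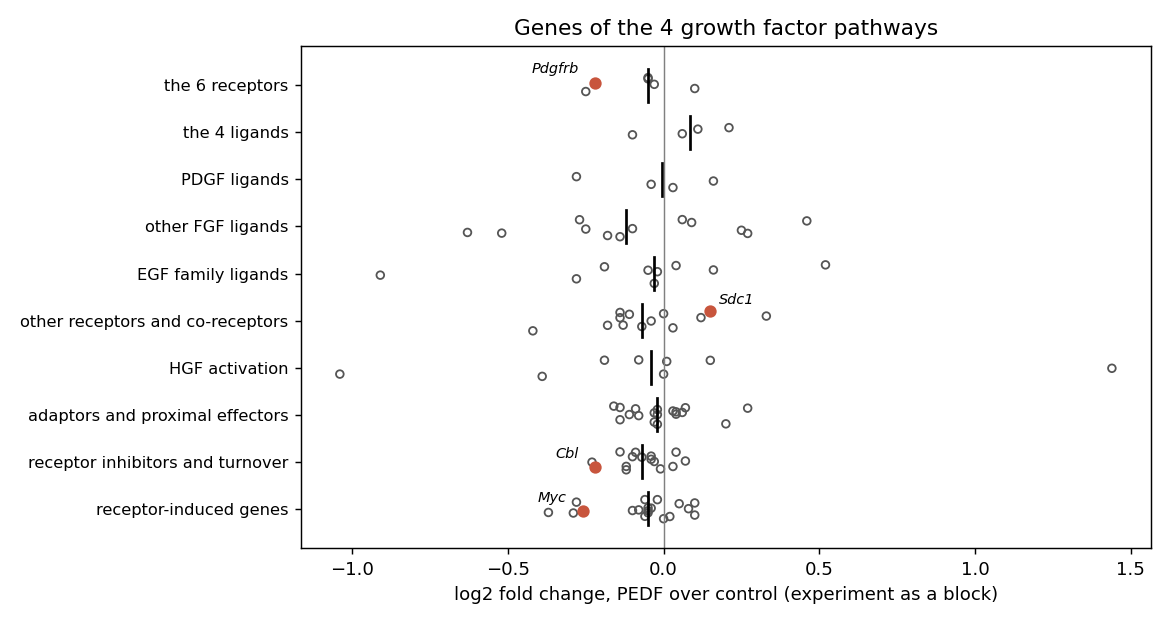
Log2 fold change of PEDF against control (block fit) for each tested gene of the members and the 8 pathway lists, with a bar at each list's median and filled points for adjusted p under 0.05. The filled points are Pdgfrb, Sdc1, Cbl and Myc, and the 2 outermost values, 1.44 and -1.04 in the list for HGF activation, belong to Mst1 and Hgfac, which had 14 and 30 counts over the 4 libraries.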

How the data were processed

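The members and gene lists were chosen with earlier results of these data known. Per the labels and the paper, polyadenylated RNA was made into directional libraries, reads were trimmed with Trimmomatic 0.38 and aligned with HISAT2 2.1.0 to mm10, and featureCounts 1.6.3 gave counts per gene, which the authors deposited as raw counts. TPM values were deposited beside them, and the conversion, the annotation and the strand setting of the counting are not given in the sources used here. Gene positions and lengths were taken from GENCODE M21 (GRCm38). Of 12701 genes with enough counts, 98.4% had a length implied by TPM within 1% of the summed exon length there.

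Counts were tested in R 4.3.3 with edgeR 4.0.16 (TMM factors, quasi-likelihood test with robust dispersions) and no covariate. Genes needed at least 10 counts over the 4 libraries, which 19384 had, with Benjamini-Hochberg adjustment over all of them and a threshold of 0.05. Standard errors were derived from the test's F statistic. Replicate numbers mark experiments, which per the series design text had their own embryos, so a second fit took the experiment as a block. Over 10700 genes, differences between the experiments in control and in PEDF libraries correlated across genes (r = 0.423), and genes are no independent replicates. The intervals of ratios within an experiment are exact conditional binomial intervals at 95%, with 1 library per arm and so no test. The length trend was a natural spline of 5 degrees of freedom on log2 exon length, fitted to genes with a mean log2 CPM above 3 and used as an offset. The alternatives were this offset, RLE factors, other count filters, DESeq2 1.42.0, limma 3.58.1 on log2(TPM + 1), and each library left out. The named genes are the 10 members, the 3 of each pathway list with the highest median TPM, and listed pathway genes with an adjusted p under 0.05 with or without the block, while markers are given by counts and ranges. The single markers, Dusp5, Gm10282, Malat1, Nudt6, Ctbp2, Gm43489, Mst1 and Hgfac were named after their values were seen. Of 162 listed symbols 161 had a row. The scripts were tested on simulated data. The paper's other experiments were not analysed here.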

Additional observations from a re-analysis of the deposited data

How the results depend on the processing

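In the comparison of PEDF with control MEFs, the number of called genes depended most on the block. Without it edgeR called 1 gene, and with the replicate block 726, of which Pdgfrb was the 1 member. The block with the length trend removed gave 421 and 1 member, DESeq2 with the block 111 and 1 member, DESeq2 without it 9 and 0 members, and the length trend removed without the block 2 (Malat1 and Gm10282). With no filter on low counts 106 genes were called. With filterByExpr 0 were (1187 at an unadjusted p under 0.05), and limma on log2(TPM + 1) also called 0 (964 at an unadjusted p under 0.05). Leaving out 1 library, where the lone library of a group is assumed to vary like the other group, gave 8 to 332 genes and 0 to 1 members. The highest count was without control replicate 1, where Pdgfrb was called (-0.37), followed by 103 genes without PEDF replicate 2. Among the members and the named pathway genes, the block changed the calls of Pdgfrb, Sdc1, Cbl and Myc and no other, and among the markers named it changed those of Col1a1, Col1a2, Fn1, Dcn, Lum and Lyz2. The cause of these changes was not tested.

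Between experiments, edgeR called 870 genes and 2 members. Without the treatment term it called 11 and 0 members (1486 genes and 2 members at an unadjusted p under 0.05, with values of 0.26 for Pdgfrb and 0.20 for Egfr). DESeq2 called 95 genes and 1 member (Pdgfrb), and with the length trend removed 1 member was called.

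With the length trend removed, with or without the block, the log2 fold changes with PEDF of Pdgfra (0.02), Fgfr1 (0.02) and Egfr (0.06) changed sign. So did the ratios of Fgfr1 within experiment 1 (0.02) and experiment 2 (0.02), of Pdgfra within experiment 2 (0.04) and of Fgf7 within experiment 1 (-0.03). Leaving out 1 library turned the sign for Pdgfra (-0.11 to 0.01), Fgfr1 (-0.11 to 0.01), Egfr (-0.18 to 0.12), Fgf10 (-0.11 to 0.33), Hgf (-0.01 to 0.13) and, between experiments, Fgf7 (-0.28 to 0.12), where no residual degrees of freedom were left and no test was made. None of these was called in a fit, while the counting interval of Fgfr1 within experiment 2 before removal of the trend (-0.11 to -0.01) lay below 0. Met (-0.33 to -0.17), Fgf2 (-0.21 to -0.00), Fgf7 with PEDF (0.07 to 0.35) and Fgfr2 (0.07 to 0.13) kept their sign. TPM could not be recomputed from lengths in the count table, which has none, and lengths of GENCODE M21 were used. With 2 preparations, the block fit has 1 residual degree of freedom, and its p-values draw mainly on spread estimated across genes. Fgf10 and Hgf were limited by their 259 and 800 counts.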
